A study of Mus musculus with 24 samples.

Results

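The 10 genes that encode the enzymes and the chaperone of collagen crosslinking and folding were followed through the choroidal transcriptome of wild type and Ceacam1-/- mice. They are the lysyl oxidases Lox, Loxl1, Loxl2, Loxl3 and Loxl4, the lysyl hydroxylases Plod1 and Plod2, the prolyl 4-hydroxylase subunits P4ha1 and P4ha3, and the collagen chaperone Serpinh1. The members were taken by symbol, and each of the 10 was found once among the 56065 genes of the table. In the choroid, the vascular layer behind the retina, 24 RNA libraries were sequenced. In the dissection described for its cell sorting, the study uses this name for retinal pigment epithelium, choroid and sclera together, so the libraries may also hold sclera, a collagen tissue rich in fibroblasts. Of the 24 libraries, 4 were from wild type mice without laser and 9 from wild type mice with laser. Another 4 were from Ceacam1-/- mice without laser and 7 from Ceacam1-/- mice with laser. The Ceacam1-/- mice lack exons 1 and 2 of Ceacam1 and came from heterozygous matings on a C57BL/6J background, with wild type littermates as controls and both sexes used. Mice were 6 to 8 weeks old unless otherwise stated, and whether this holds for the laser mice is not given. Laser mice received 6 spots per eye (150 mW, 200 µm, 100 ms), a model in which new vessels grow from the choroid. The interval between laser and tissue collection, the sex behind each library and whether a library holds 1 animal are not given in the sources used here, so p-values measure only the spread between these libraries. Values are normalized counts, which are estimated reads divided by factors for library size and transcript length. They summed to between 23704346 and 35094410 per library. Libraries with laser are numbered 1 to 19 and those without laser 21 to 28. A difference that follows this order cannot be told apart from laser.

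Collagen chains are modified inside the endoplasmic reticulum before they are secreted. Prolyl 4-hydroxylases hydroxylate proline, which keeps the triple helix stable at body temperature, and lysyl hydroxylases act on lysine. Serpinh1, also named Hsp47, binds the folded procollagen and accompanies it towards the Golgi. Outside the cell, the copper-dependent lysyl oxidases oxidize lysine and hydroxylysine residues of collagen and elastin, and the aldehydes so formed condense into covalent crosslinks. Scar tissue and fibrovascular membranes are rich in crosslinked collagen. Loxl1 is the family member best known for elastic fibre maintenance, which includes the elastic layer of Bruch's membrane.

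Ceacam1 itself was checked first against the genotype labels. Without laser it had 958, 5027, 1242 and 4596 normalized counts in wild type libraries 21, 22, 26 and 27, and 405, 505, 508 and 1171 in Ceacam1-/- libraries 23, 24, 25 and 28. With laser it ranged from 774 to 8367 (median 996) in the 9 wild type libraries and from 67.8 to 905 (median 335) in the 7 Ceacam1-/- libraries. Values were lower in Ceacam1-/- libraries on average, but the ranges overlapped, and a gene-level count includes reads from exons outside the deletion. The mean log2 value of 6 surface epithelium markers was 14.04 and 14.12 in Ceacam1-/- libraries 28 and 15 (Ceacam1 1171 and 905). In Ceacam1-/- libraries 23 and 7 it was 9.39 and 8.67 (Ceacam1 405 and 335). It was 13.45, 10.04 and 11.18 in wild type libraries 22, 27 and 19 (Ceacam1 5027, 4596 and 8367). Its wild type and Ceacam1-/- medians were 7.49 and 8.57 without laser, and 6.14 and 6.23 with laser. The part of these cells was not tested.

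Of the 24 libraries, 5 stood apart by their photoreceptor transcripts. The mean log2 value of 8 photoreceptor markers was 15.87, 15.05 and 15.88 in the laser-treated Ceacam1-/- libraries 14, 15 and 18, 14.97 in wild type library 21 without laser and 15.10 in Ceacam1-/- library 23 without laser. In the other 19 libraries it was at most 13.90. All 8 of these markers were above 0 in every library. Libraries 14, 15 and 18 also had the lowest melanocyte marker means (10.13, 11.44 and 9.93) and the lowest retinal pigment epithelium means (11.46, 11.47 and 10.83) of the series. The endothelial markers, Pecam1, Cdh5 and Plvap among them, were above 0 in all 24 libraries, which does not show how much choroid a library holds. The members' laser comparisons and the counts of the related lists are also given without these libraries, a comparison added after the data had been seen.

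The members lie on 8 chromosomes of GRCm39. Lox is on chromosome 18, Loxl2 on 14, Loxl3 on 6, Loxl4 on 19, Plod1 on 4 and P4ha1 on 10. Loxl1 and Plod2 are both on chromosome 9, 34.2 Mb apart. Serpinh1 and P4ha3 are both on chromosome 7, 0.93 Mb apart, and Serpinh1 is 73.8 Mb from Ceacam1.

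Without laser, Serpinh1 was by far the most abundant member. Per kilobase of its canonical transcript it reached a level of 2588 ± 755 normalized counts (SD, n = 8 libraries of both genotypes), above P4ha1 in all 8. P4ha1 followed with 721 ± 174 and Loxl1 with 633 ± 255 per kilobase. This pair did not differ beyond its spread, as P4ha1 was the higher one in 5 of 8 libraries. Loxl1 was above the next gene, Plod1 (217 ± 37.6), in 8 of 8 libraries. Lox, the founding member of its family, had 184 ± 101 per kilobase, Plod2 140 ± 22.1, Loxl2 110 ± 35.3 and Loxl3 104 ± 33.7. Neighbours from Plod1 to Loxl3 in this order were closer to each other than 1 SD. P4ha3 (57.7 ± 37.6) and Loxl4 (28.9 ± 9.87) closed the order, also within 1 SD of each other. Loxl1 had the highest mean level per length of the 5 lysyl oxidases, and P4ha1 a higher one than P4ha3.

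Lox, Plod2 and P4ha1 are known targets of hypoxia-inducible factor, so the promoters were searched for its core letters. ACGTG or GCGTG on either strand was found within 250 bases before the annotated start in 5 of the 9 members searched (Loxl3, Loxl4, Plod1, Plod2 and P4ha1), against 41.4% of 21599 promoters. The promoter of Lox was not searched. The letters CACGTG count for both strands at once. Within 150 bases Plod2, which was called higher with laser in wild type mice, had 3 matches, and its window is not shown. Windows of 150 bases before the start are shown for a pair of members with 2 matches each, of which P4ha1 had the smallest wild type laser estimate, and for P4ha3, which had the second largest and no match in this window. They were read from GRCm39 on the + strand, at chr10:59158942-59159091 (P4ha1), chr6:83011002-83011151 (Loxl3) and chr7:99934536-99934685 (P4ha3), each ending at the base before the first exon. Capitals mark ACGTG or GCGTG.
P4ha1: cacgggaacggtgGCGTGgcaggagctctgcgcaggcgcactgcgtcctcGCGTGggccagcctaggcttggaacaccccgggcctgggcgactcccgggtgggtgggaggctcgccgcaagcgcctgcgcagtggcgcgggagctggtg
Loxl3: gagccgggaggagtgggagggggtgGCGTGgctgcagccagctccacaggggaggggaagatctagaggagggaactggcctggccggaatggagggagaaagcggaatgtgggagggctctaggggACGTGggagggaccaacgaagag
P4ha3: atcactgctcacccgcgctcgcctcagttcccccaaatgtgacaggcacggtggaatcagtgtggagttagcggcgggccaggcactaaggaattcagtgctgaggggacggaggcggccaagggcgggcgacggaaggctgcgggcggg
The SMAD element CAGAC, searched on both strands in the same way, was in 3 of 9 members (Loxl1, Loxl4 and Plod1) against 41.3% of promoters. The TATA box letters TATAAA were in 1 (Plod1) against 11.9%. The GC box letters GGGCGG were in 7 of the 9 searched, which leaves out Loxl3 and Serpinh1, against 36.5%. A match is a run of letters and not a bound site.

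In wild type mice, 5 of the 10 members were called higher with laser: Lox, P4ha3, Plod2, Loxl2 and Loxl3. Of all 19950 genes tested, 4.23% were called higher. The median log2 change of the 10 members was 1.34, against -0.10 for all genes, and 10 of 10 estimates were above 0, against 42.1% of genes. Lox had the largest change of the 10, with a fitted fold of 8.69. The test was limma on log2 of the value plus 1, over all 24 libraries, with Benjamini-Hochberg adjustment over all genes and a threshold of 0.05. In whole tissue, more cells of a type and more RNA per cell cannot be told apart. As markers of other cells, 7 of 8 myeloid genes were also called higher in the same comparison (median 2.24). Of the 8 fibroblast markers 2, Col3a1 and Lum, were called higher (median 1.22), and their part in the members' change was not tested.

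Lox, which starts crosslinking of fibrillar collagen and elastin, had 684, 948, 1616 and 645 normalized counts in wild type libraries 21, 22, 26 and 27 without laser. With laser its lowest value in the 9 wild type libraries was 3658, the median 9586 and the highest 11065. All values with laser were above all values without. The log2 change was 3.12 (SE 0.52, adjusted p = 0.000602).

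P4ha3, a catalytic subunit of prolyl 4-hydroxylase, had 82.7, 140, 133 and 77.8 normalized counts in the same libraries without laser. With laser it ran from 243 to 1026 with a median of 480, and the groups did not overlap. Its log2 change was 2.23 (SE 0.51, adjusted p = 0.00923). P4ha1 is another catalytic subunit. It was 2421 ± 353 (SD, n = 4) without and 2860 ± 427 (SD, n = 9) with laser, its groups overlapped, and its log2 change of 0.24 did not pass (95% confidence interval -0.19 to 0.66, adjusted p = 0.53).

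Plod2 hydroxylates the telopeptide lysines that direct stable collagen crosslinks. Without laser its 4 wild type values were the tightest of any member, at 586, 554, 500 and 474 normalized counts. The 9 values with laser lay between 677 and 2008 (median 1332), all above those without. The log2 change was 1.21 (SE 0.28, adjusted p = 0.00975). Plod1, which hydroxylates lysines of the triple helix, was 1280 ± 283 (SD, n = 4) without and 2222 ± 308 (SD, n = 9) with laser. Its groups did not overlap either, but the log2 change of 0.81 did not pass (SE 0.30, adjusted p = 0.125).

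Loxl2, a lysyl oxidase that also acts on basement membrane collagen IV, had 459, 642, 715 and 320 normalized counts without laser. With laser it ran from 879 to 3587 (median 1743). Loxl3 had 386, 571, 539 and 262 without and 738 to 2037 (median 1172) with laser. In both genes every library with laser was above every library without. The log2 changes were 1.79 for Loxl2 (SE 0.49, adjusted p = 0.0306) and 1.57 for Loxl3 (SE 0.43, adjusted p = 0.0341). These calls were the least stable of the 5. Without library 1, 12, 21, 22 or 27 in turn the count of members called fell to 3, and both genes lost their call in each of these fits. Loxl3 also lost it without library 3. With no filter on the mean both genes lost their call too (adjusted p = 0.0518 for Loxl2 and 0.0574 for Loxl3, limma). A Y-linked covariate, used in place of sex, had the same outcome (adjusted p = 0.0566 and 0.0538, limma). Log2 changes were then 1.76 for Loxl2 and 1.59 for Loxl3.

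The chaperone Serpinh1 came close to the threshold. It was 7566 ± 1526 (SD, n = 4) without and 21682 ± 7418 (SD, n = 9) normalized counts with laser, with no overlap between groups. The log2 change was 1.47 (SE 0.44, adjusted p = 0.0537). Loxl1 was 2100 ± 986 (SD, n = 4) without and 4466 ± 721 (SD, n = 9) with laser, a log2 change of 1.18 (SE 0.47, adjusted p = 0.156), and its groups overlapped by library 26. Loxl4, the member with the lowest level per kilobase without laser, was 157 ± 39.6 (SD, n = 4) and 232 ± 130 (SD, n = 9), with a log2 change of 0.31 (95% confidence interval -0.63 to 1.25, adjusted p = 0.719). Its values with laser spread from 44.9 to 434, around those without laser. In all, 7 of 10 members had wild type groups that did not overlap, with all values higher with laser, against 4.50% of the genes tested. Without the photoreceptor-rich libraries 8 of 10 members were called higher, against 5.76% of genes. Serpinh1, Plod1 and Loxl1 were then called as well, and P4ha1 and Loxl4 were not.

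**Figure D1:**
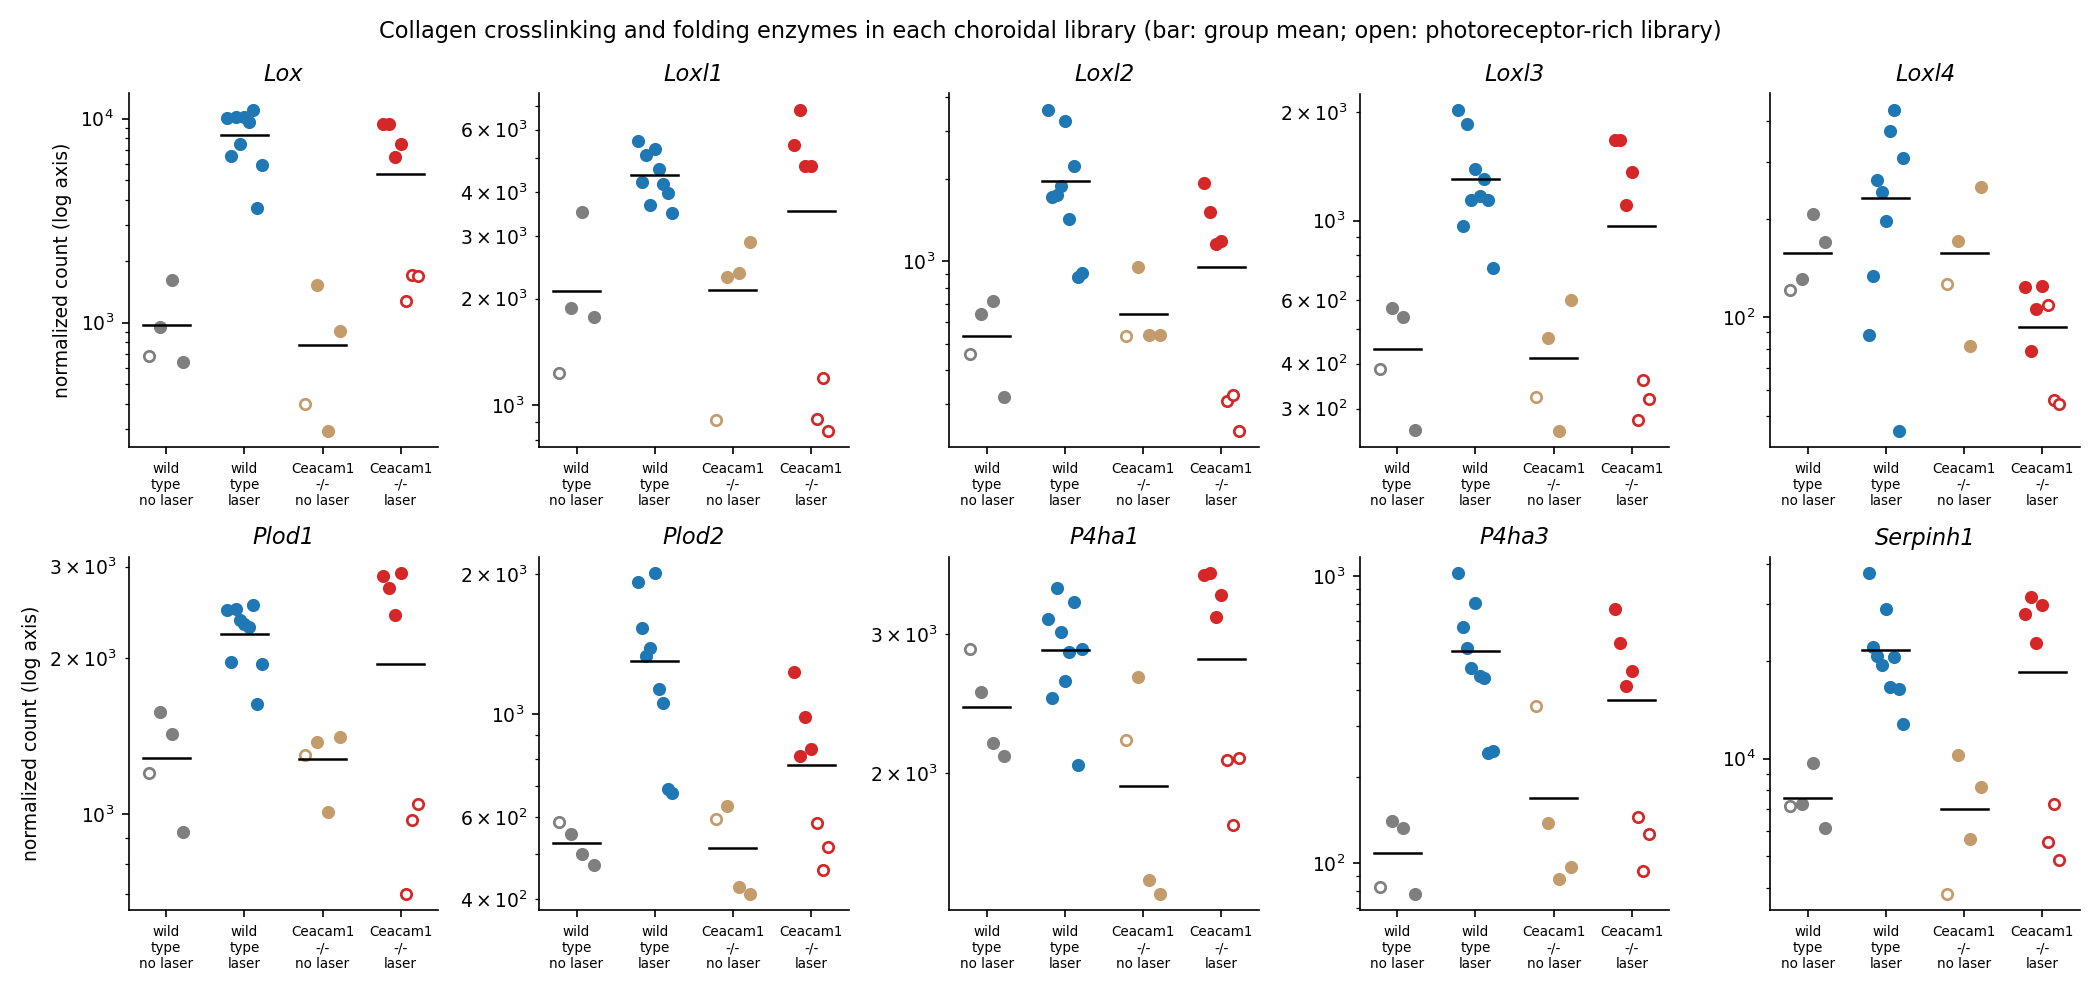
Normalized count (y, log axis) of each member in each library, by group on the x axis, with a bar at the group mean and open symbols for the 5 photoreceptor-rich libraries. Lox in wild type libraries lies between 645 and 1616 without laser and between 3658 and 11065 with laser, while the open symbols of the laser-treated Ceacam1-/- group lie at 1280 to 1713.

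In Ceacam1-/- mice, 1 of the 10 members, Lox, was called higher with laser, against 2.07% of the 19950 genes. The members' median log2 change was 0.53, against 0.02 for all genes, and 9 of 10 estimates were above 0, against 51.2% of genes. Without laser, Lox had 400, 1522, 295 and 907 normalized counts in libraries 23, 24, 25 and 28. With laser, libraries 4, 5, 6 and 7 had 9426, 9435, 6473 and 7467, and the photoreceptor-rich libraries 14, 15 and 18 had 1280, 1713 and 1685. The groups overlapped only through library 14, which was below library 24. The log2 change was 2.64 (SE 0.54, adjusted p = 0.00846). Without Ceacam1-/- library 25 the call was lost, with a log2 change of 2.28 and an adjusted p of 0.0707 from limma.

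The other 9 members did not pass, and for all of them but Loxl4 the laser-treated Ceacam1-/- libraries fell into the same 2 sets. Serpinh1 had 27991, 31590, 22824 and 29803 normalized counts in libraries 4, 5, 6 and 7, and 5545, 7259 and 4861 in libraries 14, 15 and 18. Without laser it had 3814, 10234, 5662 and 8196. Its log2 change over all 7 libraries was 1.12 (SE 0.46, adjusted p = 0.17). Plod1 showed the same order, with 2415 to 2915 in the first set, 699 to 1043 in the photoreceptor-rich set and 1006 to 1409 without laser. For 9 of 10 members, all but Loxl4, libraries 4, 5, 6 and 7 were each above the 3 photoreceptor-rich libraries and each above the 4 libraries without laser. The share of all genes with this order was not counted, so it is not shown to be particular to the members. Loxl4 was 158 ± 71.9 (SD, n = 4) without and 93.3 ± 30.4 (SD, n = 7) with laser, with a log2 change of -0.71 (95% confidence interval -1.69 to 0.27, adjusted p = 0.418). No member had all values with laser above all values without, which 1.17% of genes had.

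With the 3 photoreceptor-rich laser-treated Ceacam1-/- libraries left out, 7 of 10 members were called higher, against 7.60% of genes, and the members' median was 1.33. Lox then rose by a log2 change of 3.67 (adjusted p = 9.67e-06), Serpinh1 by 2.09 (adjusted p = 8.28e-05), P4ha3 by 1.92 (adjusted p = 0.00711) and Loxl3 by 1.86 (adjusted p = 0.000375). Loxl1, Plod1 and P4ha1 were also called, at 1.46, 1.11 and 0.87. Plod2 at 0.91 (adjusted p = 0.0501) and Loxl2 at 1.19 (adjusted p = 0.0506) missed the threshold, and Loxl4 stood at -0.44 (adjusted p = 0.674). With all 5 photoreceptor-rich libraries left out, 8 members were called, against 8.66% of genes, and Plod2 was among them (adjusted p = 0.0445, limma). Markers of other cells moved in the same fit. Of the 8 fibroblast markers 1, Lum, was called higher in Ceacam1-/- mice with all libraries (median 1.13) and 8 without the 3 libraries (median 2.36), and of the 8 myeloid genes 5 (median 1.59) and then 7 (median 1.94). Their part in the members' change was not tested. Libraries left out were chosen by photoreceptor markers, after the data had been seen. For 9 of 10 members the 3 libraries were also the lowest of the laser-treated Ceacam1-/- group. Higher estimates without them follow from this and are no independent support for a laser change. The part of retinal RNA in the result was not tested.

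**Figure D2:**
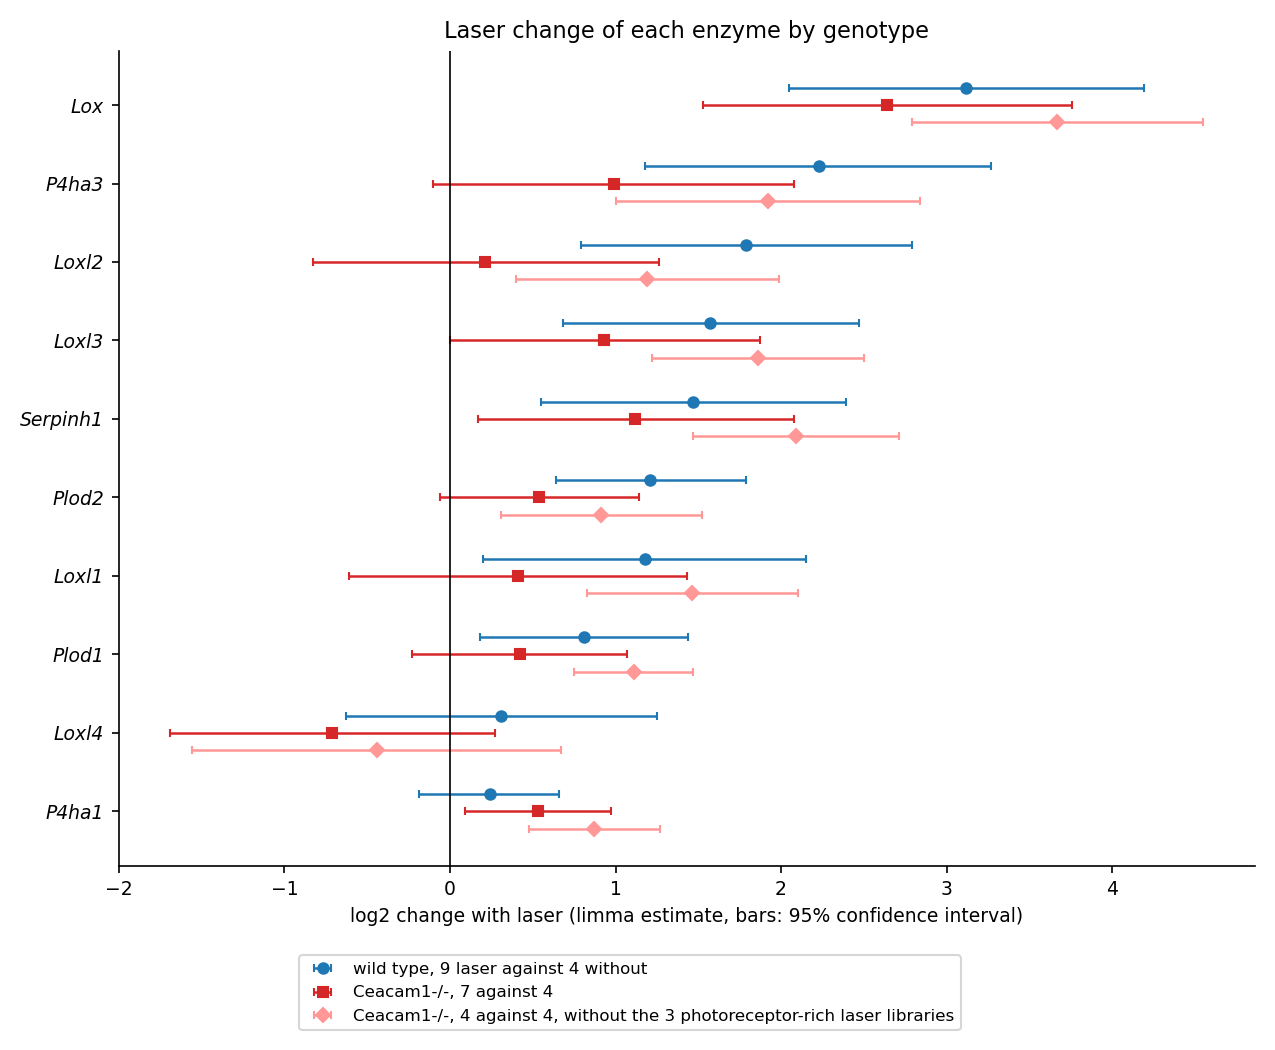
Log2 change with laser (x) of each member (y), estimated by limma with 95% confidence intervals, in wild type mice, in Ceacam1-/- mice, and in Ceacam1-/- mice without the 3 photoreceptor-rich laser libraries. For Serpinh1 the Ceacam1-/- estimate moved from 1.12 to 2.09 when these libraries were left out, while Loxl4 stayed below 0 in both.

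Whether laser acted differently in the 2 genotypes was tested as the interaction of laser and genotype. None of the 10 members and 0 of 19950 genes passed by limma, and 1241 genes (6.22%) had an unadjusted p below 0.05. The members' median interaction was -0.66, and 1 member, Loxl2, had an unadjusted p below 0.05 (log2 difference -1.58, SE 0.70, adjusted p = 0.64 from limma). Without the 3 photoreceptor-rich laser-treated Ceacam1-/- libraries the median was 0.29. Loxl2 was then at -0.60, and the 1 member with an unadjusted p below 0.05 was P4ha1 (0.64, adjusted p = 0.999 from limma). In that fit 458 of 19723 genes had an unadjusted p below 0.05. The smaller number of members called in Ceacam1-/- mice is therefore not shown to be a difference between genotypes.

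Without laser, the comparison that the study was built on, no member was called between genotypes. Log2 differences of Ceacam1-/- minus wild type ran from -0.51 for Lox to 0.45 for P4ha3, all with an adjusted p of 0.999 from limma. No gene of 20057 passed, 307 (1.53%) had an unadjusted p below 0.05, and 0 of the 10 members were among them. Ceacam1 itself did not pass either. The study, which used DESeq2 with sex in its model, did report differentially expressed genes for this comparison. The absence of calls here is therefore not evidence that the genotypes are alike. The 95% confidence interval for Lox, -1.71 to 0.69, still allows a considerable difference in either direction. It was narrower for Plod2 (-0.54 to 0.43) and Plod1 (-0.48 to 0.50). All 10 members had overlapping genotypes.

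With laser, the estimates of 10 of 10 members were below 0 in Ceacam1-/- against wild type libraries, from -1.30 to -0.08, where 51.2% of all genes had an estimate above 0, and 0 were called (4 of 19757 genes, 0.0202%, were called in either direction). An unadjusted p below 0.05 was found for 4 members, Loxl2 (-1.30, adjusted p = 0.148), Loxl4 (-1.10, adjusted p = 0.164), Lox (-0.99, adjusted p = 0.197) and Plod2 (-0.73, adjusted p = 0.153, all limma), and for 9.85% of genes in the same direction. Without the 3 photoreceptor-rich libraries the members' median went from -0.75 to 0.17, and the Lox difference from -0.99 to 0.04. The differences of Loxl4, Plod2 and Loxl2 were then -0.83, -0.35 and -0.32 (adjusted p = 0.693, 0.784 and 0.872, limma), and the 1 member with an unadjusted p below 0.05 was Plod1, at 0.31 (adjusted p = 0.51, limma). In that fit 1623 of 19316 genes had an unadjusted p below 0.05 in either direction. The photoreceptor-rich libraries of this comparison are all Ceacam1-/-.

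Fibroblasts are known as a main source of collagen enzymes. Their markers were read beside the members in each library. The fibroblast mean, over Pdgfra, Dcn, Lum, Col1a1, Col1a2, Col3a1, Fbln1 and Mfap5, ranged from 13.80 to 14.67 with and from 12.30 to 13.47 without laser in wild type libraries. In laser-treated Ceacam1-/- libraries it reached 15.10, but was 11.73, 12.84 and 12.55 in libraries 14, 15 and 18. The members' mean in these 3 libraries was 9.26, 9.26 and 9.18, no higher than the 9.42 and 9.39 of the photoreceptor-rich libraries without laser. Fibroblast markers were not alone in this. Endothelial means of the 3 libraries were 9.45, 10.45 and 9.86, against at least 11.13 in laser-treated wild type libraries. Melanocyte and retinal pigment epithelium means were low there too, as given above. The part of fibroblasts in the members' level was not tested. Col1a1 was the most abundant fibroblast marker, and none of the 8 was at 0 in any library. Of the 8, Col1a1, Col1a2, Col3a1 and Mfap5 are also substrates in the lists described further on.

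**Figure D3:**
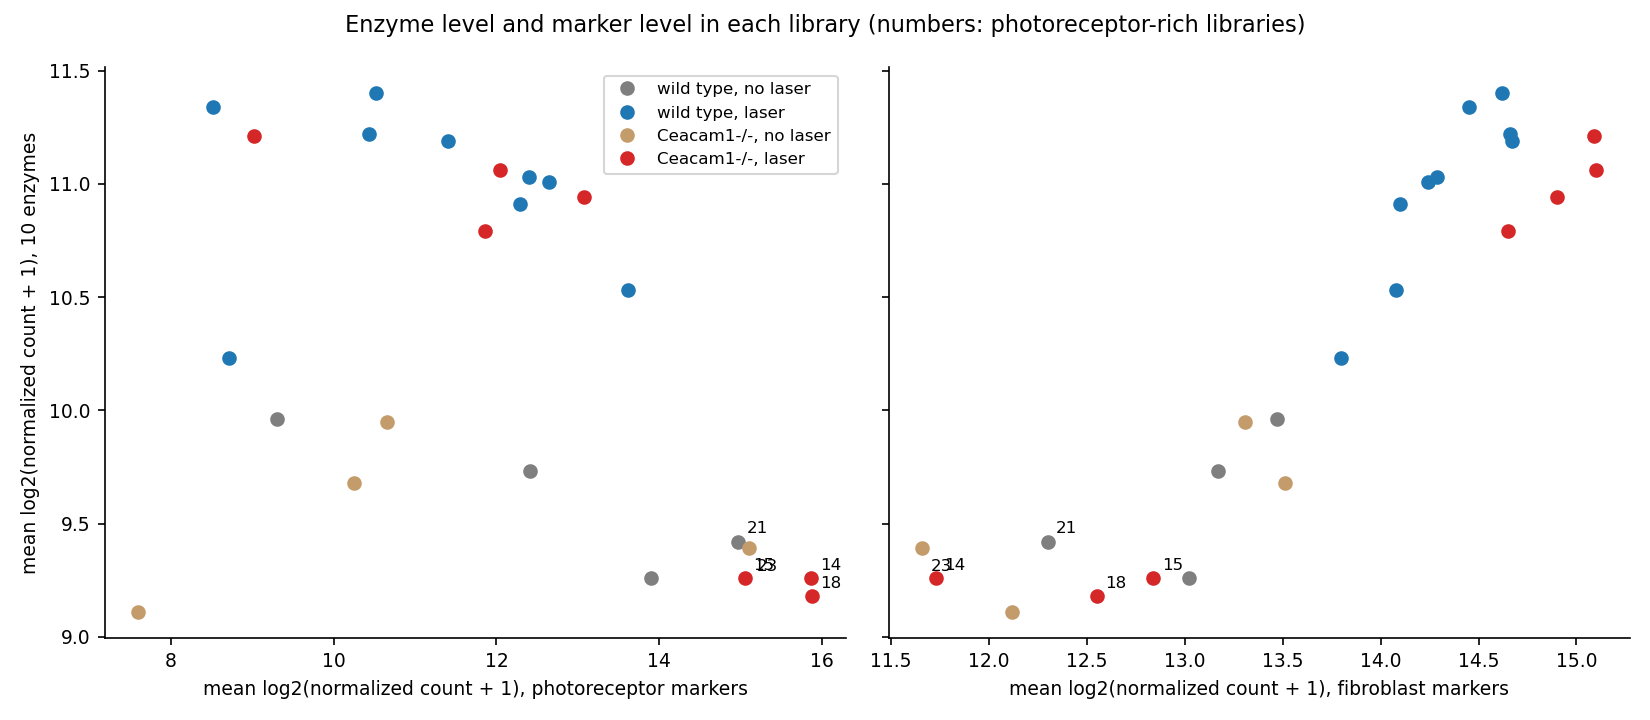
Mean log2 normalized count of the 10 members (y) against the mean of the photoreceptor markers (left, x) and of the fibroblast markers (right, x) in each of the 24 libraries, coloured by group. Libraries 14, 15 and 18 lie at 15.87, 15.05 and 15.88 on the photoreceptor axis with member means of 9.26, 9.26 and 9.18.

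Each member was also set against the fibroblast markers of its own library, a measure chosen after the data had been seen. In wild type libraries the log2 value of Lox minus the fibroblast mean was -3.16 ± 0.41 (SD, n = 4) without and -1.38 ± 0.26 (SD, n = 9) with laser, a difference of 1.79. In Ceacam1-/- libraries it was -3.33 ± 0.55 (SD, n = 4) and -1.88 ± 0.23 (SD, n = 7), a difference of 1.46. The groups did not overlap in either genotype, with the photoreceptor-rich libraries included. Among all genes 0.667% in wild type and 0.251% in Ceacam1-/- mice were apart in this way and direction. Two-sided exact permutation tests gave p = 0.0028 and p = 0.00606, the smallest these group sizes allow, among 20 such comparisons of the members. No other member was apart in this direction in either genotype. P4ha1 was apart in the other direction in wild type libraries, with a difference of -1.10 (exact permutation p = 0.0028). In Ceacam1-/- libraries its difference was -0.66 (exact permutation p = 0.291). The share of all genes apart in that direction was not counted. With laser P4ha1 itself changed by 0.24 in wild type mice, where the fibroblast markers had a median change of 1.22. Plod1 differed by -0.52 in wild type and -0.77 in Ceacam1-/- libraries (exact permutation p = 0.0168 and 0.097), and Loxl2 by 0.46 and -0.97 (exact permutation p = 0.168 and 0.0242). P4ha3 was higher by 0.90 relative to fibroblast markers in wild type (exact permutation p = 0.014) and was -0.20 in Ceacam1-/- mice (exact permutation p = 0.745). Serpinh1 had differences of 0.14 and -0.06 (exact permutation p = 0.59 and 0.764), Plod2 of -0.12 and -0.65 (exact permutation p = 0.685 and 0.321) and Loxl3 of 0.24 and -0.25 (exact permutation p = 0.347 and 0.273). For Loxl1 the difference was -0.16 in wild type and -0.78 in Ceacam1-/- mice (exact permutation p = 0.313 and 0.0182). Relative to them Loxl4 differed by -1.02 and -1.89 (exact permutation p = 0.0336 and 0.0242).

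**Figure D4:**
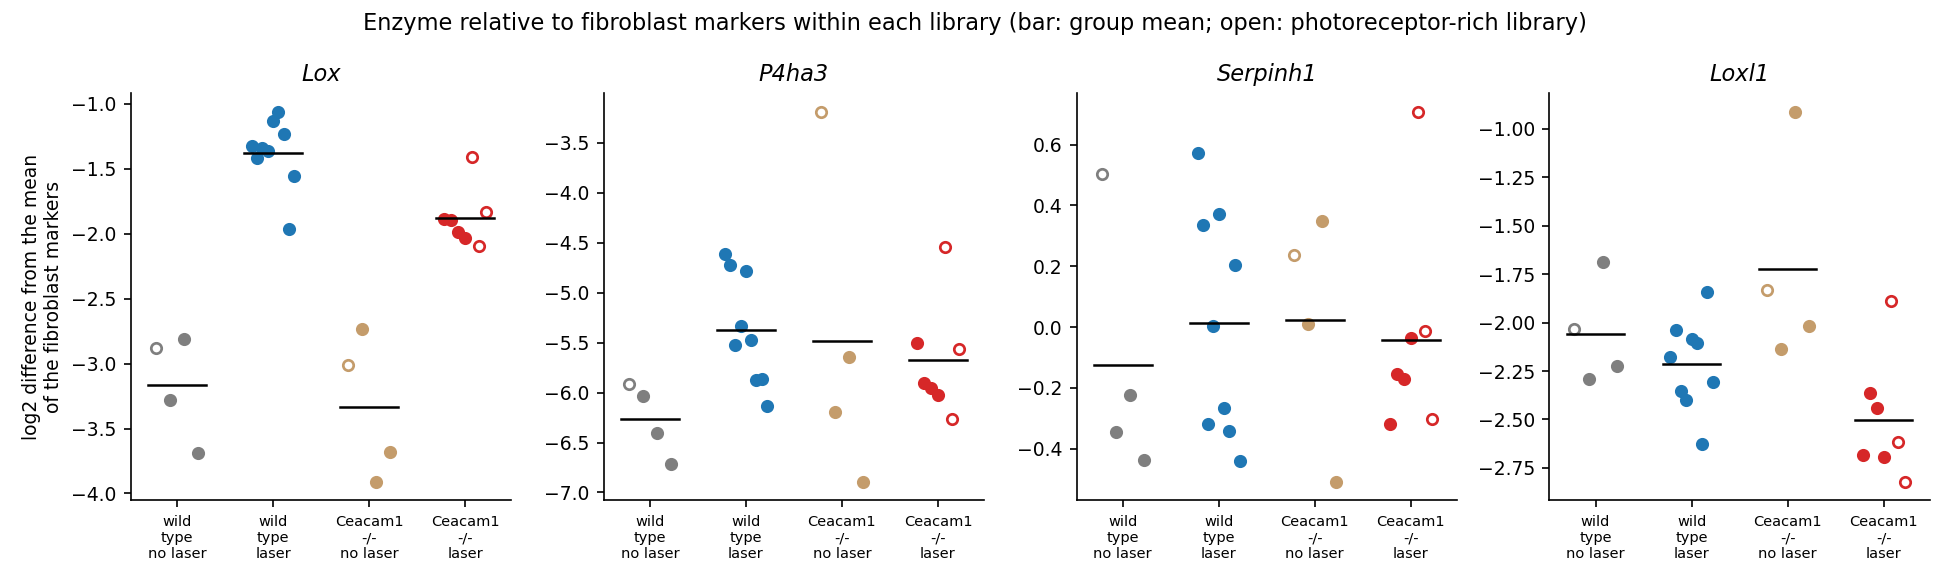
Log2 value of Lox, P4ha3, Serpinh1 and Loxl1 minus the mean log2 value of 8 fibroblast markers in the same library (y), by group (x), with a bar at the group mean and open symbols for photoreceptor-rich libraries. Lox is higher with laser in both genotypes without overlap, by 1.79 and 1.46, whereas Serpinh1 differs by 0.14 and -0.06.

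Members also varied together within groups. After each group's mean was subtracted, Pearson's r between pairs of members over the 24 libraries ranged from 0.154 to 0.928, with a median of 0.722 over 45 pairs. Over the 19 libraries that were not photoreceptor-rich r ranged from -0.0994 to 0.933, with a median of 0.555. The pairs named here are from all 24 libraries. Loxl3 and Plod1 were the pair with the highest r (0.928), followed by Loxl2 with Serpinh1 (0.924) and Loxl1 with Serpinh1 (0.922). Plod2 and P4ha3 were each other's nearest member (0.864). Loxl4 was the least like the others, with a median r of 0.242. These coefficients describe libraries that share a tissue dissection and its mixture of cells.

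Beyond the members, 3 of 16 other collagen modification and folding genes were called higher with laser in wild type mice, with a median of 0.83 over the list. For this list and those of crosslinking genes and substrates below, 4.23% of all genes were called higher in wild type and 2.07% in Ceacam1-/- mice. The shares were 7.60% in Ceacam1-/- mice without the 3 photoreceptor-rich laser libraries and 5.76% in wild type mice without all 5. P4hb, the disulfide isomerase that forms the second subunit of prolyl 4-hydroxylase, went from 6790 ± 1299 (SD, n = 4) to 13666 ± 2673 (SD, n = 9), a log2 change of 1.01 (SE 0.24, adjusted p = 0.0128). Fkbp10, a prolyl isomerase that assists lysyl hydroxylation, rose by 1.70 (SE 0.49, adjusted p = 0.0441). Colgalt1, which adds galactose to hydroxylysine, rose by 0.71 (SE 0.18, adjusted p = 0.0217). With Ceacam1 deleted 0 of 16 were called (median 0.37), and 13 of 16 without the 3 photoreceptor-rich laser libraries. Without all 5 photoreceptor-rich libraries the wild type count was 10 of 16. Of the procollagen transport and processing genes 0 of 12 tested were called in either genotype, with medians of 0.68 and 0.48. The lowest p in wild type were those of Sec24d, a vesicle coat protein (1.12, adjusted p = 0.064), and Pcolce2, which enhances procollagen cleavage (1.21, adjusted p = 0.0683, limma). Without the 3 libraries 5 of the 12 were called in Ceacam1-/- mice, and without all 5 the wild type count was also 5.

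Of 7 other matrix crosslinking genes, 4 were called higher in wild type mice. Postn, which binds collagen and helps to activate lysyl oxidase, went from 1459 ± 510 (SD, n = 4) to 16410 ± 11948 (SD, n = 9), a log2 change of 3.25 (SE 0.57, adjusted p = 0.000999). Fn1, the fibronectin on which matrix assembles, rose by 2.10 (adjusted p = 0.00204), the transglutaminase subunit F13a1 by 1.88 (adjusted p = 0.0107) and Pxdn, the peroxidase that crosslinks collagen IV, by 1.09 (adjusted p = 0.0066). Fn1 alone of the 7 passed in Ceacam1-/- mice (1.73, SE 0.41, adjusted p = 0.0202), and Postn stood at 1.39 (SE 0.59, adjusted p = 0.187, limma). Without the 3 libraries 5 of 7 passed there, and without all 5 the wild type count was also 4.

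Substrates of the enzymes were counted in the same way. Of 9 fibrillar collagen genes 3 were called higher in wild type mice, with a median of 1.41. Col3a1, a major chain of early scar matrix, rose by 2.50 (SE 0.57, adjusted p = 0.00957), and the minor chains Col5a2 by 2.15 (adjusted p = 0.00766) and Col5a3 by 1.46 (adjusted p = 0.0434). None of the 9 was called in Ceacam1-/- mice (median 1.03), and 7 were without the 3 photoreceptor-rich libraries. Of 10 elastic fibre genes 1 was called in wild type mice, Efemp2, a fibulin that brings lysyl oxidase to tropoelastin (1.27, SE 0.36, adjusted p = 0.0395). Of the same 10 genes 0 were called in Ceacam1-/- mice, and 9 without those libraries. Leaving out all 5 photoreceptor-rich libraries gave 5 of 9 fibrillar collagen and 4 of 10 elastic fibre genes in wild type mice.

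The 2 lists of genes that respond to known inputs of these enzymes had medians of opposite sign. Of 12 hypoxia-responsive genes 0 were called higher and 2 lower in wild type mice (against 1.05% of all genes called lower), with a median of -0.42. Vegfa, the main angiogenic growth factor of the choroid, went from 8412 ± 1928 (SD, n = 4) to 4653 ± 1264 (SD, n = 9), a log2 change of -0.88 (SE 0.24, adjusted p = 0.0296). Bnip3 changed by -1.05 (SE 0.31, adjusted p = 0.0499). Vegfa was lower in Ceacam1-/- mice too, with a log2 change of -1.06 (SE 0.25, adjusted p = 0.0181), the only one of the 12 called there, against 1.65% of all genes called lower. Without the 3 photoreceptor-rich laser libraries 3 of 12 were called lower in these mice, against 2.57% of all genes, and without all 5 the wild type count was 4, against 2.63%. Of 8 TGF-beta-responsive genes 3 were called higher in wild type mice and 0 lower, with a median of 0.80. Among them, the latent TGF-beta binding protein Ltbp2 rose by 1.95 (SE 0.53, adjusted p = 0.0333) and Tgfb1 by 1.46 (SE 0.41, adjusted p = 0.0356). Ltbp2 was also called higher in Ceacam1-/- mice (2.17, SE 0.56, adjusted p = 0.0316), where 2 of the 8 were called and the median of the list was 0.63. Without the 3 libraries 4 of the 8 were called there, and without all 5 the wild type count stayed at 3. Of all genes 4.23% were called higher in wild type and 2.07% in Ceacam1-/- mice. The shares were 7.60% in Ceacam1-/- mice without the 3 libraries and 5.76% in wild type mice without all 5. Quantile normalization and upper-quartile scaling kept the sign of the wild type and Ceacam1-/- medians of both lists, but under each of them 1 rather than 2 of the TGF-beta-responsive genes was called in Ceacam1-/- mice.

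**Figure D5:**
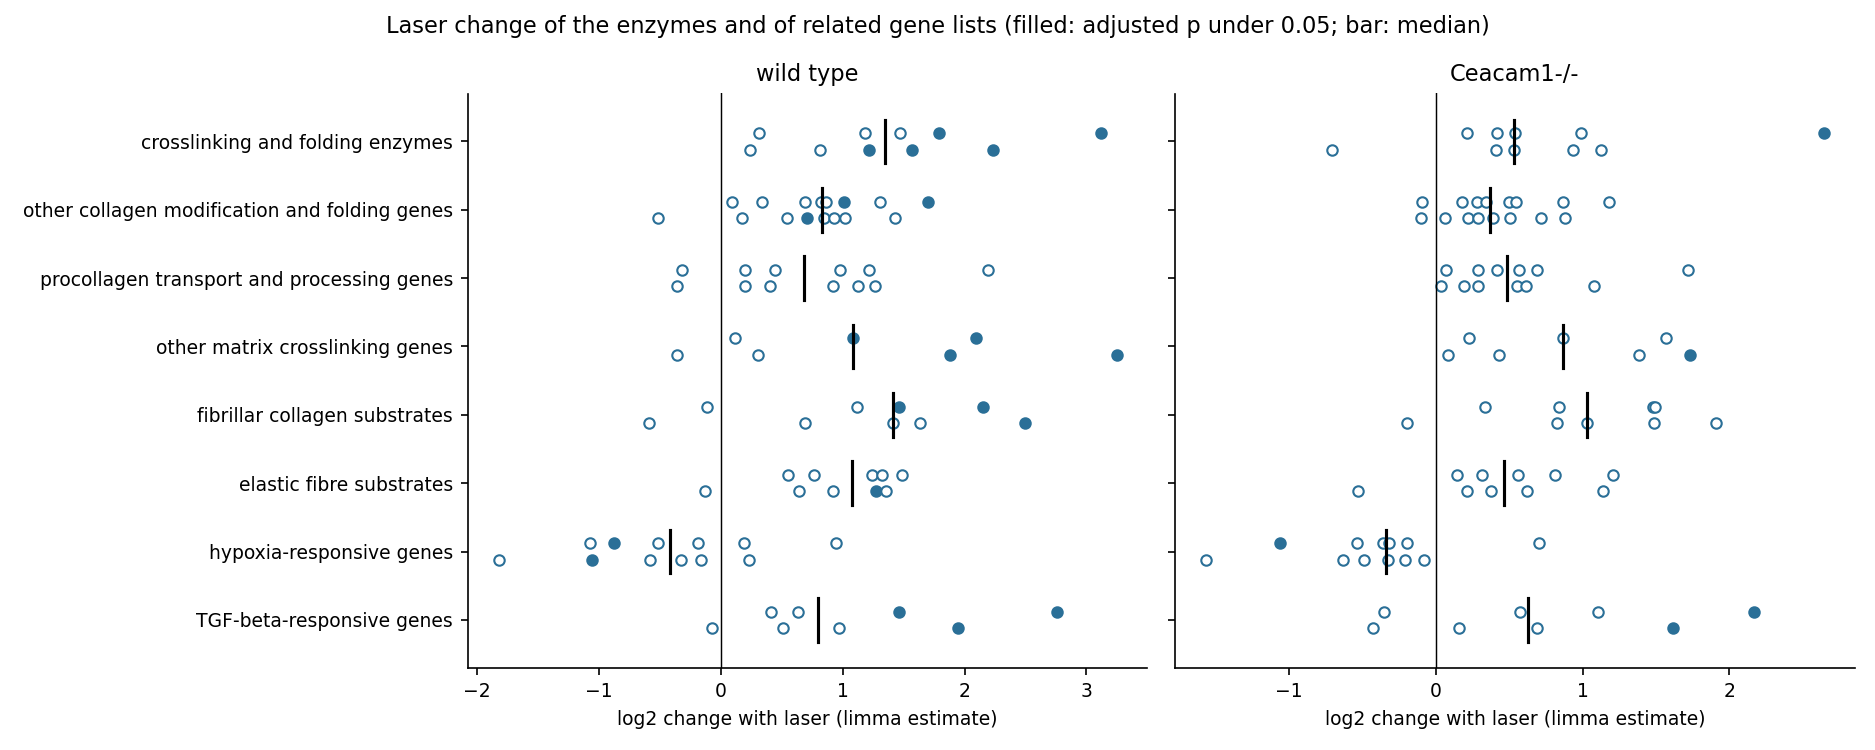
Log2 change with laser (x) of each gene of the members and of 7 related lists (y), in wild type (left) and Ceacam1-/- mice (right), filled where the adjusted p from limma was under 0.05 and with a bar at the list median. The wild type median is 1.34 for the members, 1.41 for fibrillar collagens and -0.42 for hypoxia-responsive genes.

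Markers of other cells moved in these comparisons too. Of the photoreceptor, retinal pigment epithelium, melanocyte, endothelial, pericyte and smooth muscle, skeletal muscle, lens and surface epithelium lists, 0 genes were called in either direction in either genotype with all 24 libraries. The wild type and Ceacam1-/- medians were -1.48 and 2.36 for photoreceptors, and -0.71 and -2.02 for skeletal muscle. Medians of the retinal pigment epithelium were -0.07 and -1.61, melanocyte medians 0.54 and -0.46, and endothelial medians 0.58 and -0.05. Pericyte and smooth muscle medians were 0.10 and -0.61, lens medians 1.95 and 2.53, and surface epithelium medians -1.69 and -2.54. Without the 3 photoreceptor-rich laser libraries the Ceacam1-/- medians were 0.62 for photoreceptors, -0.59 for the retinal pigment epithelium, 0.75 for melanocytes, 0.48 for endothelium and 0.09 for pericytes and smooth muscle, and 1 melanocyte gene, Pmel, and 1 lens gene, Cryga, were called higher. Without all 5 libraries the photoreceptor median in Ceacam1-/- mice was 2.00. In that fit 7 of 8 skeletal muscle genes were called lower in Ceacam1-/- mice (median -2.27), against 6.26% of all genes, as were the pericyte and smooth muscle gene Des, which skeletal muscle also expresses, and the surface epithelium gene Trp63. Of 6 Mueller glia genes 1 was called higher in wild type mice, Vim (1.35, adjusted p = 0.016, limma), a filament gene that fibroblasts also express. Of the 8 myeloid genes 5 were called higher with laser in Ceacam1-/- mice and 7 in wild type mice, and Lyz2, the most abundant, rose by 2.74 in wild type and 2.44 in Ceacam1-/- libraries. The summed normalized counts of the myeloid list ran from 9249 to 19290 without and from 41913 to 115153 with laser in wild type libraries. The part of any of these cells in the members' change was not tested.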

How the data were processed

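Choroidal RNA of 24 libraries was made into SMART-Seq libraries from about 10 ng of RNA. The authors assigned reads to GRCm39 transcripts with Salmon 1.10.3, summarized them by tximport, normalized them in DESeq2 1.44.0, removed 1 outlier library and deposited normalized counts (signal values). Low values were whole multiples of a step in only 31.1% to 77.2% of cases per library (tolerance 0.05), so count tests were not run and read depth is unknown. Groups were taken from the labels. Here limma 3.58.1 in R 4.3.3, with a variance trend, was fitted to log2 of the value plus 1 for genes with a mean of at least 10, and p was adjusted by Benjamini-Hochberg over all genes tested. Laser and interaction used 24 libraries, and genotype used the 8 without or 16 with laser. Single values were compared by exact permutation tests with scipy 1.17.1. Lengths and positions were from the GENCODE annotation, which matched 99.1% of identifiers. Members and gene lists were chosen with earlier results of these data known. Named were all members, and of each of the 7 related lists up to 4 called genes, taken in order of p (a list without calls gave its first 2). Cell type markers were given by counts and medians, and single markers were named after their values were seen. Photoreceptor-rich libraries had a marker mean of at least 14.5. Alternatives were pseudocounts, filters, scalings, variance models, covariates and leaving out each library. The limma script was tested on simulated data. The values of 2 genes of the lists are not reported here.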

Additional observations from a re-analysis of the deposited data

Results flagged for a closer look

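Of 40 sets of values, 1 for each member in each group, 1 was marked by Dixon's test. Among the 4 Ceacam1-/- libraries without laser, Loxl2 had 950 normalized counts in library 24 and between 533 and 539 in the others, a gap of 0.987 of the range. Chance marks about 1 in 20 such sets.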

How the results depend on the processing

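The count of 5 members called with laser in wild type mice became 3 with no filter and with a Y-linked covariate, 9 with array weights, and 8 with a skeletal muscle covariate, with only the 2 groups compared and without the 5 photoreceptor-rich libraries. Leaving out each library in turn gave 3 to 6. The count of 1 in Ceacam1-/- mice became 7 with array weights, 3 with a photoreceptor covariate, 2 with a skeletal muscle covariate, 0 with only the 2 groups compared (Lox 2.64, adjusted p = 0.168), 8 without the 5 photoreceptor-rich libraries and 7 without the 3 laser-treated Ceacam1-/- ones. Leaving out each library in turn gave 0 to 1. Except for the fits without photoreceptor-rich libraries, the share of all genes called is not given for these alternatives. These counts therefore do not tell whether the members or genes in general moved. The cause of these moves was not tested. The Loxl2 change in Ceacam1-/- mice turned to -0.03 without Ceacam1-/- laser library 4 (-0.03 to 0.48 with each library left out), and the Lox genotype difference with laser to 0.04 without the 3 libraries. In wild type mice Lox (2.83 to 3.53), P4ha3 (2.05 to 2.48) and Plod2 (1.12 to 1.34) passed under all 38 alternatives, Loxl2 under 31 and Loxl3 under 30. Lox in Ceacam1-/- mice passed under 37 of 39. The genotype and interaction counts were 0 under every alternative run. The members' median interaction was -0.66, and 0.24 and 0.29 without the 5 and the 3 libraries. That of genotype with laser was -0.75, and 0.17 without the 3. The members' median between genotypes without laser was -0.07, and 0.33 with array weights, 0.06 without library 25 and 0.04 without library 26; their interaction median was 0.06 with a photoreceptor covariate. Apart from the values given here, most alternatives left a gene on the same side of the threshold in the same direction, a count close to its value, or a median within the spread of the libraries (1176 of 1262 in all). No paired analysis was possible because the groups share no replicate numbers. Read depth and the time after laser could not be modelled, and sex, which the labels do not give, entered only through the Y-linked covariate.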

Other observations

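Among all genes tested, those whose log2 values were most like the mean z-score of the 10 members over the 24 libraries were Txndc5, a disulfide isomerase of the endoplasmic reticulum (Pearson's r 0.964), Enpp1 (0.964), Vsir (0.96), Msn (0.959), Snx7 (0.959), Tnfrsf1b (0.958), Arf4 (0.957) and Aspn, a small leucine-rich proteoglycan of the matrix (0.955). After each group's mean was subtracted, Txndc5 again came first (0.949), followed by Adam19 (0.945), 1810055G02Rik (0.944), Enpp1 (0.943), Vsir (0.94), Tmem119 (0.936), Zfp9 (0.935) and Tnfrsf1b (0.933). These coefficients are over 24 libraries that share tissue mixture and, for the first set, the laser contrast.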
